A study of Mus musculus with 21 samples.

Results

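DNA damage signalling and repair genes were followed in mouse lymphoid progenitors (LPs) in which Lmo2, Zbtb1, Cbfa2t2 or Cbfa2t3 had been targeted with CRISPR/Cas9. The set holds 37 genes named for their roles in damage signalling and repair, of 55421 genes with an identifier in the expression table, and all 37 passed the filter on low values that left 11554 genes for testing. They were listed by function and not by a cut on their expression. The cells were Ebf1-deficient LPs of the C57BL6/J strain, a line that stops before B-cell commitment because it lacks the transcription factor Ebf1, kept on OP9 stroma with SCF, IL-7 and Flt3L. All cells carried Cas9-GFP and a retroviral sgRNA pool of 2 vectors per target with an hNGFR marker, and GFP+hNGFR+ cells were sorted 5 days after sgRNA introduction. The 5 groups were sgControl (guides against luciferase), sgLmo2, sgZbtb1, sgCbfa2t2 and sgCbfa2t3, with 3 QuantSeq 3′ mRNA libraries each, which the methods call independent. ChIP-seq for Zbtb1 and Cbfa2t3 was done in Ebf1-deficient LPs without Notch stimulation, with 2 replicates per factor and gave 1 peak list per factor. The line models lymphoid progenitors held before B-cell commitment, and each group is a pool of edited cells and not a clone.

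Cells answer broken or blocked DNA with a signalling layer and several repair routes. The kinases Atm and Atr sense double-strand breaks and stalled replication forks and act through Chek2 and Chek1, while the repair routes rejoin ends, copy an intact template, cut out damaged bases or nucleotides, or let a translesion polymerase pass the lesion. Zbtb1 is known from other cells as a factor of this last route, in which it helps bring KAP-1 (encoded by Trim28) and Rad18 to damaged chromatin, and loss of Zbtb1 in lymphoid progenitors is known to engage p53. Cells that rearrange antigen receptor genes also depend on end joining, the route of Xrcc5, Xrcc6, Prkdc and Lig4.

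Levels are given as counts of reads scaled to 1000000 per library (CPM). The 15 libraries held 1705416 to 2095447 reads, so a floor of 3 reads was worth 1.43 to 1.76 CPM, and replicate pairs differed by more than counting noise (chi-square per degree of freedom 2.22 to 3.60). The mRNA of 3 targeted genes was higher under their own guides, and the names below are those the labels give the libraries. Zbtb1 stood at 61.7 ± 5.51 CPM (SD, n = 3) in sgControl and 106 ± 9.91 CPM in the libraries labelled sgZbtb1, and Cbfa2t3 at 190 ± 18.7 and 350 ± 12.9 CPM in the libraries labelled sgCbfa2t3 (limma adjusted p = 0.00102 and 1.67e-07). Cbfa2t2 stood at 11.8 ± 0.698 CPM in sgControl and 21.9 ± 4.85 CPM in the libraries labelled sgCbfa2t2, all 3 of which lay above sgControl, without passing the test (adjusted p = 0.412), and Lmo2 did not pass under its own guides (18.4 ± 4.17 and 16.3 ± 7.99 CPM, adjusted p = 0.956). A 3′ read does not show a small edit, so these values neither check nor replace the labels, and directions drawn for all 4 guides rest on the labels. Ebf1 itself gave 209 to 366 CPM in every library, so its 3′ reads do not show the deficiency either. The LP markers Ptprc (362 to 513 CPM), Flt3 (193 to 285 CPM) and Il7r (118 to 216 CPM) were present in all 15 libraries, as were Dntt (50.9 to 131 CPM), Tcf3 (67.3 to 126 CPM) and Kit (6.87 to 25.4 CPM). The other 6 of the 12 LP markers were low: Rag1 and Rag2 reached 4.52 and 6.39 CPM, Vpreb1, Cd79b and Igll1 were at 0 in their lowest library and reached 4.91, 1.955 and 1.095 CPM, and Cd79a was at 0. Of the markers of other cells, the 12 OP9 stromal markers, 4 of them at 0 throughout, summed to at most 13.2 CPM in a library (0 to 5.26 CPM in sgZbtb1 and 5.28 to 6.39 CPM in sgControl). The 8 myeloid markers summed to at most 30.3 CPM, the 6 T-cell markers to at most 32.3 CPM and the 4 erythroid markers to at most 1.93 CPM.

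The binding sites that the results return to are shown first. They are stretches of 200 bases around the centre of a ChIP-seq peak, read from the GRCm38 plus strand, in lower case, with capitals for 4 short motifs on either strand: TGTGGT (the Runx core), TGGTGGT (a core of the Zbtb7c type), CCGGAAG (the ETS core) and CAGNTG (a form of the E-box). E-box below means this form only, and other sites of the wider pattern CANNTG are neither marked nor counted. The Msh6 promoter and the Xpc intron were bound by both factors, the Rev1 promoter by Zbtb1, and the Xrcc6 intron by Cbfa2t3.
Msh6 promoter, chr17:87974699-87974898: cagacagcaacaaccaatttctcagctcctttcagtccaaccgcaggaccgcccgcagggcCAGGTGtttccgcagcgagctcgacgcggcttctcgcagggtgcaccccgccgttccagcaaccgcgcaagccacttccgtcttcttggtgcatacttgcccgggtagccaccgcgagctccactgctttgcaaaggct
Rev1 promoter, chr1:38129934-38130133: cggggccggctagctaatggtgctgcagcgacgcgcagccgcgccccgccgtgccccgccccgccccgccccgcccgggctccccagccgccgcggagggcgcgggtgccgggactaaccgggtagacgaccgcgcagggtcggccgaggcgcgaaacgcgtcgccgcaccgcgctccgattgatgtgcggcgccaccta
Xpc intron, chr6:91506127-91506326: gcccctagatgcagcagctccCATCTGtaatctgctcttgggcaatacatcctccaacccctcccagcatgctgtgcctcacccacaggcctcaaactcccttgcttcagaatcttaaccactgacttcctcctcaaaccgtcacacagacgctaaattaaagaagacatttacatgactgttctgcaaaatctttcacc
Xrcc6 intron, chr15:82027860-82028059: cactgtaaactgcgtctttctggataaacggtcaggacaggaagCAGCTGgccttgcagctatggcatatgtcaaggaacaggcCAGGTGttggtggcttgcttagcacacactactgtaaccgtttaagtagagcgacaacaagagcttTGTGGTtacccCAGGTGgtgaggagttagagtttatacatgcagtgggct

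All 37 repair genes were expressed in the LPs. Averaged over the 15 libraries, 8 of them were above 100 CPM, 26 lay between 10 and 100 CPM and 3 were at 10 CPM or below, and 36 of 37 exceeded the floor of 3 reads in every library. Parp1 (289 CPM), which senses DNA nicks, was the highest, and Lig4 (4.93 CPM), the ligase of end joining, was the lowest and fell to 1.74 CPM, or 3 reads, in an sgControl library. The highest library was 1.19 times the lowest for Usp1, a deubiquitinase of the Fanconi pathway, and 6.68 times the lowest for Ddb2, which recognises ultraviolet lesions. The spread of the reads over the 15 libraries, as chi-square per degree of freedom, had a median of 2.55 over the repair genes and of 2.69 over the 8157 genes with a mean above 10 CPM. For 12 of the 37, among them Fancd2, Msh6, Xpc and Rev1, another annotated gene overlaps the last 1000 bases, where 3′ reads lie, and whether the counting used strand is not given in the sources used here.

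**Figure D1:**
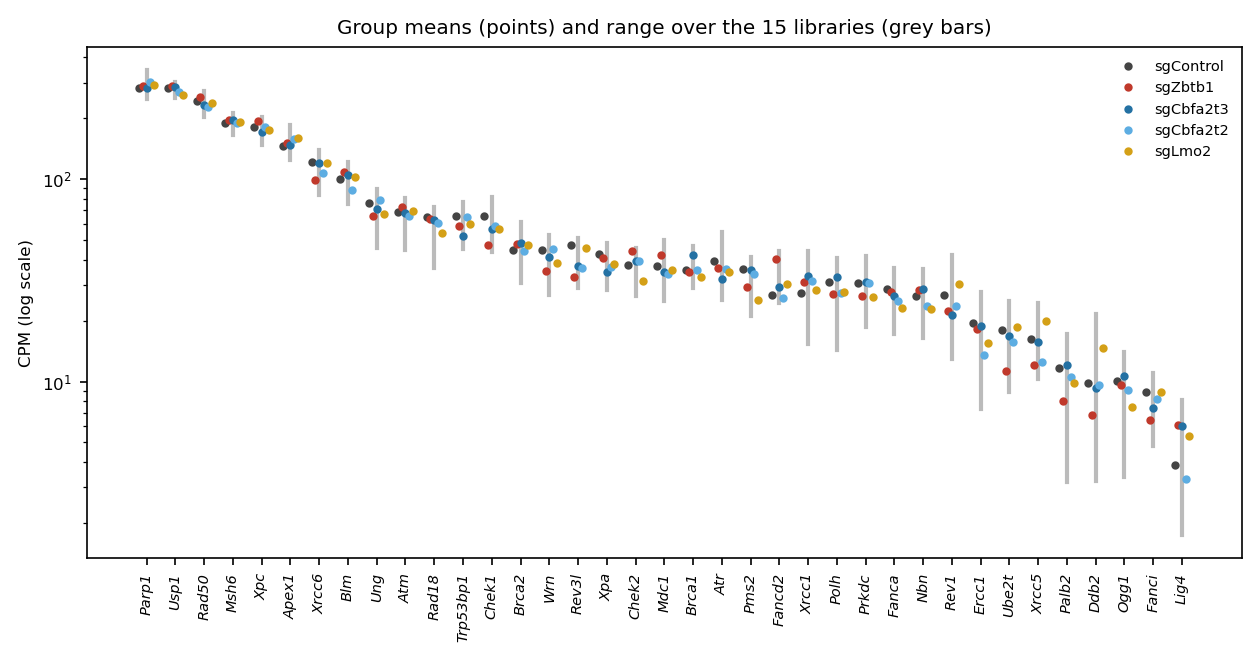
Level of the 37 repair genes in CPM on a log scale, ordered by their mean over the 15 libraries, with points for the 5 group means (n = 3 each) and grey bars from the lowest to the highest library. The genes run from Parp1 at 289 CPM to Lig4 at 4.93 CPM, and the group means of most genes lie close together within the range of single libraries.

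No repair gene passed in the 4 comparisons against sgControl (limma, Benjamini-Hochberg adjusted p below 0.05 over 11554 genes). In sgZbtb1, where 4.79% of all tested genes were called, the count was 0 of 37, and the lowest adjusted p was 0.123, of Rev3l. An unadjusted p below 0.05 was reached by 4 of 37 genes (10.8%) against 17.6% of all genes, and the same number was found with edgeR and with DESeq2. The libraries of the groups did not overlap for 6 of 37 (16.2%) against 22.9% of all genes. By log2 fold change, 15 genes were higher and 22 lower, with a median of -0.05 beside -0.03 over all genes, and the range ran from -0.59 to 0.58.

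The other guides gave the same count of 0 of 37. In sgCbfa2t3, where 0.537% of all genes were called, no repair gene reached an unadjusted p below 0.05 with limma, edgeR or DESeq2 (background 10.6%), and 1 gene, Rev3l, had libraries that did not overlap (background 15.8%). In sgCbfa2t2, where 0.147% of all genes were called, the unadjusted count was likewise 0 with the 3 tools (background 9.56%) and 2 genes had libraries apart (background 13.7%). In sgLmo2, where 0.0173% of all genes were called, 1 gene, Pms2, reached an unadjusted p below 0.05 with each tool (background 5.65%), and it was also the only repair gene of this comparison whose libraries did not overlap (background 10.6%). The members' medians were -0.03 in sgCbfa2t3, -0.09 in sgCbfa2t2 and -0.05 in sgLmo2, beside -0.01, 0.00 and 0.01 over all genes. In these comparisons 16, 9 and 11 of the 37 genes (43.2%, 24.3% and 29.7%) were higher than sgControl, beside 48.6%, 50.7% and 52.3% of all genes, but the comparisons share the same 3 sgControl libraries and are not independent counts.

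**Figure D2:**
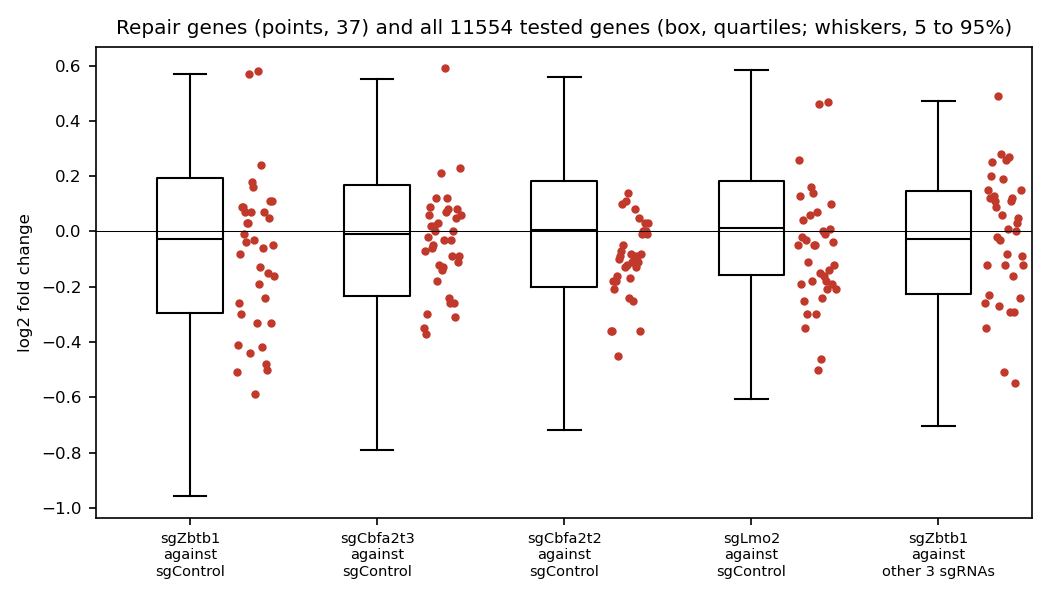
Log2 fold changes in the 5 comparisons. Red points are the 37 repair genes, boxes give the quartiles and median of all 11554 tested genes and whiskers run from 5 to 95%. The repair genes lie between -0.59 and 0.59 in all 5 comparisons, inside or close to the whiskers.

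The intervals show how large a change these libraries could have missed. The 95% interval of the log2 fold change lay within -1 and 1, a 2-fold change either way, for 30 of 37 repair genes in the sgZbtb1 comparison, for 34 each with the Cbfa2t3 and Cbfa2t2 guides and for 32 with the Lmo2 guides, while over all tested genes the share was 63.1% to 66.5%. It lay within a 1.5-fold change for 17, 21, 22 and 17 genes. The distance from the estimate to either bound was 0.19 for the best measured gene, 0.41 at the median and 0.92 for Lig4. A change of 1.5-fold was therefore not detectable at this depth for the less abundant members, among them Lig4, Fanci, Ogg1, Ddb2 and Palb2. These intervals are not adjusted for the number of genes, while a call needs an adjusted p below 0.05, so better measured members could be missed too. In sgZbtb1, Fancd2 and Rev3l had folds of 1.48 and 0.701 and were not called (adjusted p = 0.125 and 0.123 in limma).

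**Figure D3:**
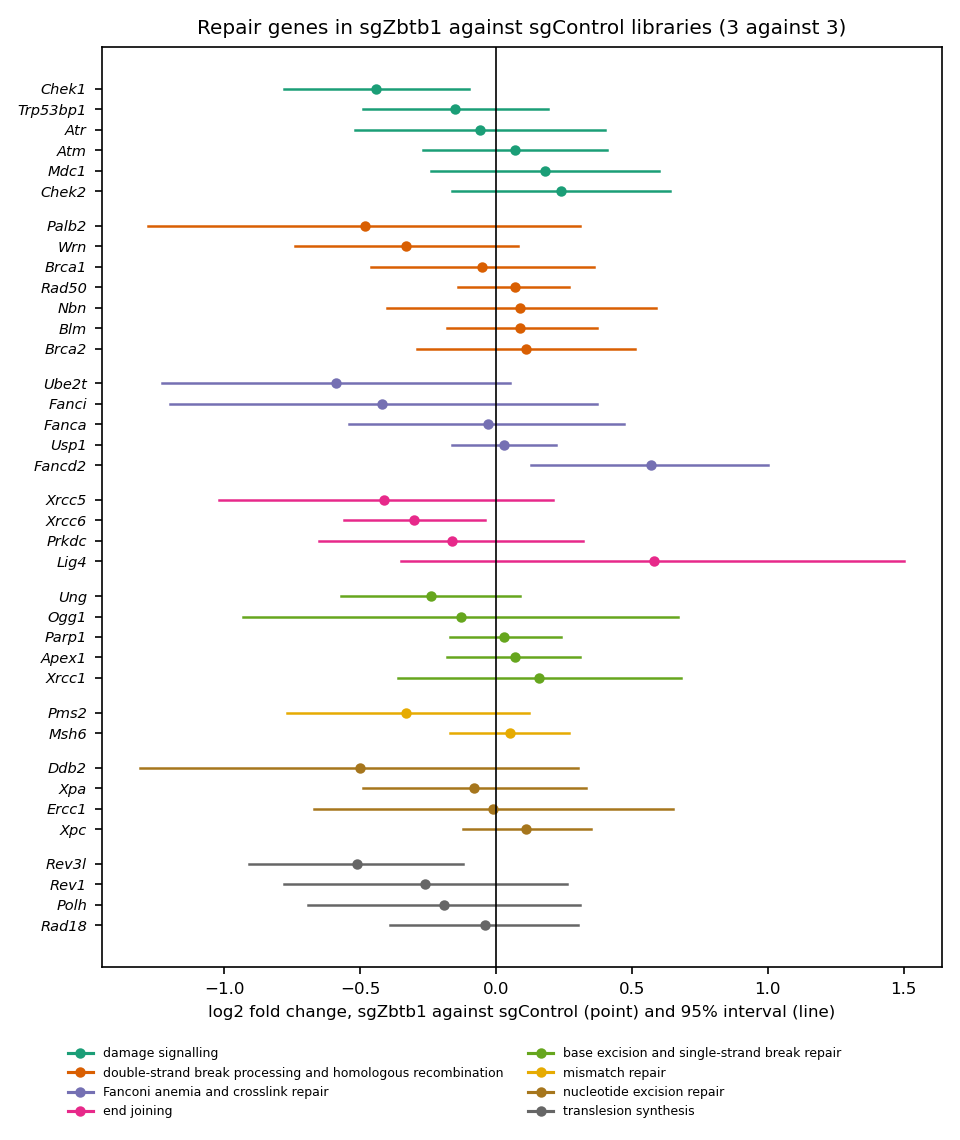
Log2 fold change of each repair gene in sgZbtb1 against sgControl (points, 3 against 3 libraries) with the 95% interval (lines), grouped and coloured by repair route. The intervals of Chek1, Xrcc6 and Rev3l lie below 0 and that of Fancd2 above 0 before adjustment, and the other 33 include 0.

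Translesion synthesis, the route to which Zbtb1 is tied by earlier work, had 4 members, and all 4 had negative estimates in sgZbtb1 (-0.51 to -0.04), with 1 unadjusted p below 0.05, where 46.7% of all genes had positive estimates. Negative estimates were common to the guides. Against the same sgControl libraries, 4 of 4 were also negative in sgCbfa2t2, 3 of 4 in sgCbfa2t3 and 3 of 4 in sgLmo2, where 50.7%, 48.6% and 52.3% of all genes had positive estimates, and the medians were -0.23 in sgZbtb1, -0.22 in sgCbfa2t2, -0.20 in sgCbfa2t3 and -0.10 in sgLmo2. Rev3l encodes the catalytic subunit of polymerase zeta, which extends DNA past lesions. It measured 47.6, 42.8 and 51.0 CPM in sgControl, 36.9, 30.1 and 31.4 CPM in sgZbtb1, 29.0, 40.5 and 42.1 CPM in sgCbfa2t3, 36.7, 33.4 and 39.1 CPM in sgCbfa2t2, and 46.9, 51.3 and 38.9 CPM in sgLmo2. The sgControl libraries lay above all libraries of sgZbtb1, sgCbfa2t3 and sgCbfa2t2 and overlapped those of sgLmo2. The log2 fold change in sgZbtb1 was -0.51 ± 0.20 (SE; adjusted p = 0.123 in limma, and 0.103 to 0.307 over the alternatives). It was -0.35 ± 0.20 in sgCbfa2t3 (adjusted p = 0.542, and -0.18 without sgCbfa2t3 replicate 1), -0.36 ± 0.20 in sgCbfa2t2 (0.586) and -0.05 ± 0.20 in sgLmo2 (0.995), and sgZbtb1 differed from the mean of the other 3 gene-targeting groups by -0.26 ± 0.16 (adjusted p = 0.462).

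Rad18, the ubiquitin ligase that marks PCNA at stalled forks and so calls in translesion polymerases and so was described whatever its values, did not pass in any group. It stood at 66.8, 60.8 and 67.4 CPM in sgControl, 56.4, 60.7 and 73.2 CPM in sgZbtb1, 62.7, 62.8 and 63.1 CPM in sgCbfa2t3, 55.9, 69.2 and 58.0 CPM in sgCbfa2t2, and 36.2, 57.2 and 69.6 CPM in sgLmo2. The sgZbtb1 libraries overlapped those of sgControl, and the log2 fold change was -0.04 with a 95% interval of -0.39 to 0.30 (adjusted p = 0.942). Rev1, a scaffold for the other translesion polymerases, and Polh, which copies past ultraviolet lesions, had log2 fold changes of -0.26 and -0.19 in sgZbtb1 (adjusted p = 0.657 and 0.764).

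**Figure D4:**
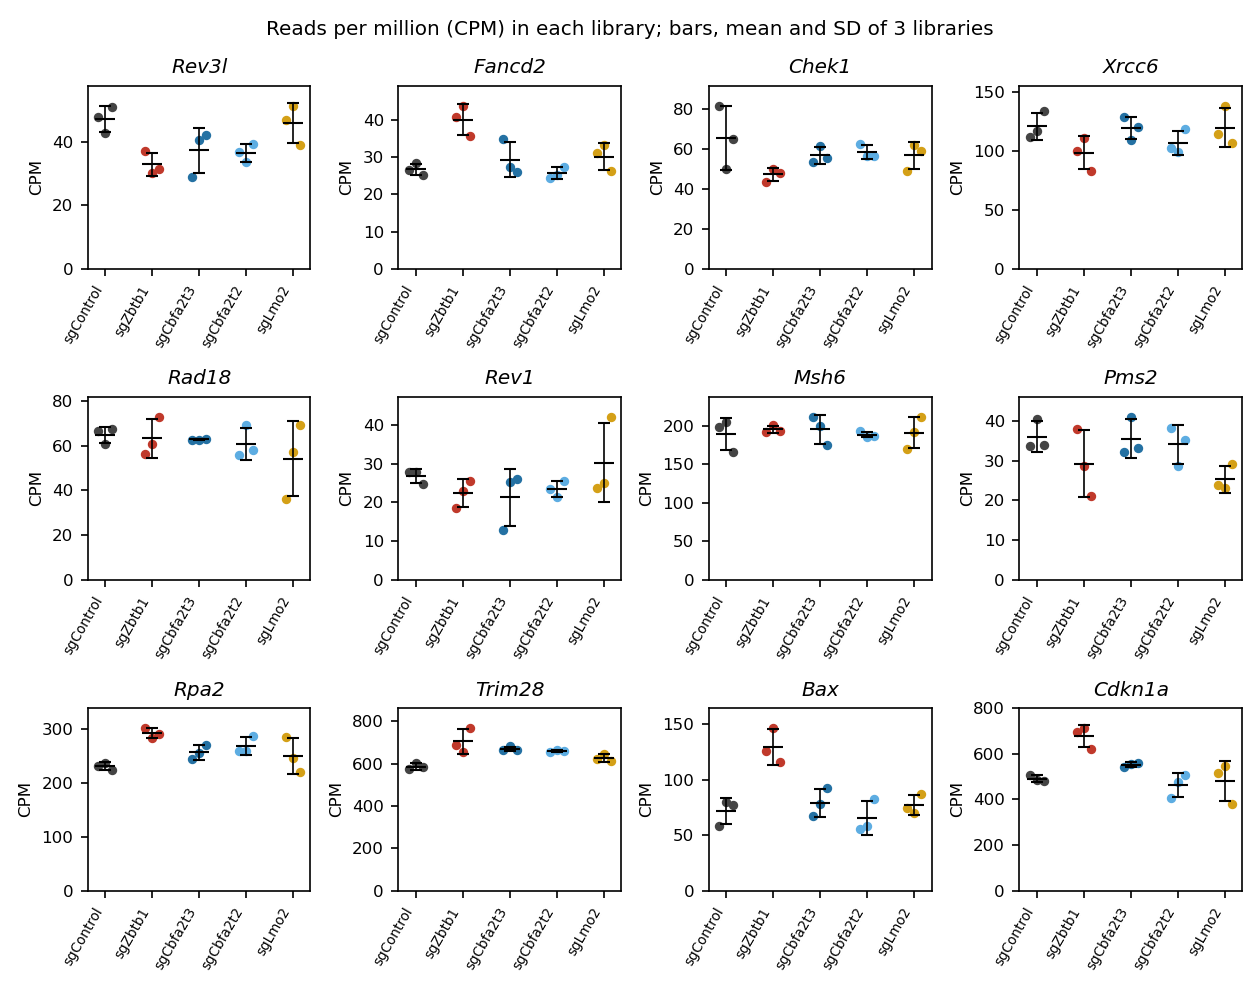
CPM of 8 repair genes (Rev3l to Pms2) and of 4 genes named from related lists (Rpa2, Trim28, Bax and Cdkn1a) in each of the 15 libraries, on axes from 0, with the mean and SD of 3 libraries per group. Rev3l is lower and Fancd2 higher in the 3 sgZbtb1 libraries than in the 3 sgControl libraries, Rad18 and Msh6 overlap between groups, and Bax and Cdkn1a are highest in sgZbtb1.

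Among the Fanconi anemia and crosslink repair genes, Fancd2 was the only one with an unadjusted p below 0.05 in sgZbtb1. The protein is ubiquitinated at crosslinks by the Fanconi complex, with Ube2t as the conjugating enzyme and Usp1 as the enzyme that removes the mark. Fancd2 measured 26.7, 28.4 and 25.2 CPM in sgControl, 40.8, 44.0 and 35.8 CPM in sgZbtb1, 34.9, 27.4 and 26.0 CPM in sgCbfa2t3, 24.5, 25.3 and 27.5 CPM in sgCbfa2t2, and 31.1, 33.2 and 26.3 CPM in sgLmo2. The 3 sgZbtb1 libraries lay above all 12 others, with 35.8 CPM as the lowest of them and 34.9 CPM as the highest of the rest. The log2 fold change was 0.57 ± 0.22 against sgControl (SE; adjusted p = 0.125 in limma and 0.0961 to 0.32 over the alternatives) and 0.49 ± 0.18 against the other 3 gene-targeting groups (adjusted p = 0.117, and 0.0646 to 0.393 over the alternatives). Fancd2os overlaps the last 1000 bases of Fancd2 in the annotation, and without strand the reads of both cannot be told apart. Ube2t had a log2 fold change of -0.59 ± 0.32 in sgZbtb1 with libraries that did not overlap (13.9, 15.6 and 24.0 against 12.3, 12.9 and 8.84 CPM; adjusted p = 0.339). Fanci (-0.42), Fanca (-0.03) and Usp1 (0.03) did not pass either.

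In end joining, Xrcc6 and Xrcc5 encode Ku70 and Ku80, the ring that grips broken ends, Prkdc the kinase that joins it and Lig4 the ligase. Xrcc6 stood at 112, 117 and 134 CPM in sgControl, 101, 111 and 83.5 CPM in sgZbtb1, 129, 110 and 121 CPM in sgCbfa2t3, 103, 99.3 and 119 CPM in sgCbfa2t2, and 115, 139 and 107 CPM in sgLmo2. The sgZbtb1 libraries lay below those of sgControl by a narrow gap, between 111 and 112 CPM. The log2 fold change was -0.30 ± 0.13 (SE; adjusted p = 0.195 in limma and 0.138 to 0.602 over the alternatives) and -0.23 ± 0.11 against the other 3 gene-targeting groups (adjusted p = 0.262). Both rested in part on sgZbtb1 replicate 3, without which they were -0.19 and -0.12. Xrcc5, Prkdc and Lig4 had log2 fold changes of -0.41, -0.16 and 0.58 in sgZbtb1, each with an interval that included 0.

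Damage signalling had 6 members with log2 fold changes of -0.44 to 0.24 in sgZbtb1. Chek1, the kinase that Atr activates at stalled forks, was looked at after its values were seen, since its p was low while its libraries overlapped. It measured 81.9, 49.8 and 65.1 CPM in sgControl and 43.6, 50.2 and 48.1 CPM in sgZbtb1, so the spread of the sgControl libraries was the wider. The log2 fold change was -0.44 ± 0.17 (SE; adjusted p = 0.13 in limma). Against the same sgControl libraries it was -0.18 in sgCbfa2t3, -0.13 in sgCbfa2t2 and -0.18 in sgLmo2. Without sgControl replicate 2, the lowest of its group, it was -0.62 with an adjusted p of 0.0477, and without sgControl replicate 1, the highest, it was -0.26. The fit without replicate 2 was the only one of 76 alternatives in which a repair gene was called, while over the other alternatives for this comparison the adjusted p reached 0.531. Mdc1, which reads phosphorylated histone H2A.X beside breaks, stood at 45.3, 33.0 and 33.4 CPM in sgControl, 50.3, 40.2 and 36.3 CPM in sgZbtb1, 44.0, 35.4 and 24.9 CPM in sgCbfa2t3, 29.8, 38.7 and 33.8 CPM in sgCbfa2t2, and 32.2, 39.6 and 35.1 CPM in sgLmo2. All 4 groups overlapped sgControl for Mdc1, with log2 fold changes of 0.18, -0.12, -0.12 and -0.05 in sgZbtb1, then sgCbfa2t3, sgCbfa2t2 and sgLmo2. The first ran from 0.05 without sgZbtb1 replicate 1 to 0.33 without sgControl replicate 1. The kinases Atm, Atr and Chek2 and the break-binding scaffold Trp53bp1 were at 0.07, -0.06, 0.24 and -0.15 in sgZbtb1.

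The 7 genes of break processing and homologous recombination had log2 fold changes of -0.48 (Palb2, the bridge between Brca1 and Brca2) to 0.11 (Brca2, which acts in strand exchange) in sgZbtb1, and none reached an unadjusted p below 0.05 in any of the 4 comparisons against sgControl. Rad50 and Nbn, parts of the complex that first meets a break, were at 0.07 and 0.09. Brca1 was at -0.05, and the helicases Blm and Wrn were at 0.09 and -0.33. Rad50 was the most precise of them, with an interval of -0.14 to 0.27.

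Excision and mismatch repair genes included several abundant members with narrow intervals. Parp1 measured 267, 275 and 301 CPM in sgControl, 302, 306 and 257 CPM in sgZbtb1, 291, 304 and 249 CPM in sgCbfa2t3, 264, 345 and 297 CPM in sgCbfa2t2, and 311, 266 and 302 CPM in sgLmo2. Ung, the glycosylase that removes uracil, stood at 89.4, 68.3 and 72.1 CPM in sgControl, 74.3, 45.9 and 78.1 CPM in sgZbtb1, 68.1, 68.5 and 77.6 CPM in sgCbfa2t3, 83.6, 85.4 and 68.1 CPM in sgCbfa2t2, and 58.8, 66.5 and 76.7 CPM in sgLmo2. Both genes overlapped sgControl in all 4 groups, and in sgZbtb1 their log2 fold changes were 0.03 (95% interval -0.17 to 0.24) and -0.24 (-0.57 to 0.09). Xpc, which recognises bulky lesions for nucleotide excision repair, was at 192, 204 and 148 CPM in sgControl, 202, 188 and 193 CPM in sgZbtb1, 198, 162 and 150 CPM in sgCbfa2t3, 199, 177 and 166 CPM in sgCbfa2t2, and 192, 167 and 167 CPM in sgLmo2. Msh6, a mismatch sensor, was at 199, 205 and 166 CPM in sgControl, 192, 201 and 194 CPM in sgZbtb1, 212, 200 and 175 CPM in sgCbfa2t3, 193, 186 and 187 CPM in sgCbfa2t2, and 170, 193 and 211 CPM in sgLmo2. Neither Xpc nor Msh6 had a group apart from sgControl, and the intervals in sgZbtb1 ran from -0.12 to 0.35 for Xpc and from -0.17 to 0.27 for Msh6. Pms2, which acts in the step after mismatch recognition and is named after its values were seen, was lower in sgLmo2 (23.7, 23.0 and 29.0 CPM) than in sgControl (33.7, 40.5 and 34.0 CPM), with a log2 fold change of -0.50 ± 0.22 (SE; adjusted p = 0.857 in limma). Apex1 and Ogg1, which cut at damaged bases, Xrcc1, the scaffold of single-strand break repair, Xpa and Ercc1, which act in lesion excision, and Ddb2 had log2 fold changes of -0.50 (Ddb2) to 0.16 (Xrcc1) in sgZbtb1, each with an adjusted p of at least 0.556.

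Whether sgZbtb1 differed from the other guides was tested directly against the mean of sgLmo2, sgCbfa2t2 and sgCbfa2t3. The sgControl libraries do not enter the means of this contrast, but they do enter the spread estimated in the shared fit. No repair gene passed (0 of 37 against 4.34% of all genes). An unadjusted p below 0.05 was found for Fancd2 and Xrcc6 with limma and edgeR and for 1 gene with DESeq2, against 15.9% of all genes in limma, and Fancd2 was the only repair gene whose sgZbtb1 libraries lay apart from the 9 others (background 4.39%). The 95% interval was within a 2-fold change for 34 of the 37 genes (91.9%), beside 73.4% of all genes.

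A wider list of 105 other genes of the same routes, of which 104 were tested, gave 2 calls in sgZbtb1 (1.92%, beside 4.79% of all genes), both higher, and 0 in the comparisons of the other 3 guides with sgControl (backgrounds 0.537%, 0.147% and 0.0173%). At an unadjusted p below 0.05 the list held 12 genes in sgZbtb1 (11.5%, beside 17.6%), 10 in sgCbfa2t3 (9.62%, beside 10.6%), 5 in sgCbfa2t2 (4.81%, beside 9.56%) and 4 in sgLmo2 (3.85%, beside 5.65%). Rpa2, a subunit of the complex that coats single-stranded DNA, was at 232, 238 and 224 CPM in sgControl and 303, 284 and 291 CPM in sgZbtb1 (log2 fold change 0.34 ± 0.10, SE; adjusted p = 0.0291 in limma). Trim28, which encodes the KAP-1 protein that Zbtb1 is known to recruit, was at 573, 603 and 583 CPM in sgControl and 689, 655 and 770 CPM in sgZbtb1 (0.26 ± 0.08; adjusted p = 0.0309 in limma). The libraries of both genes did not overlap, but the calls held in 7 and 8 of 14 alternatives, with adjusted p values up to 0.116 and 0.243. Higher values were not confined to sgZbtb1. Trim28 was above all sgControl libraries in every library of sgCbfa2t3 (664 to 681 CPM), sgCbfa2t2 (656 to 666 CPM) and sgLmo2 (614 to 646 CPM), and Rpa2 in every library of sgCbfa2t3 (244 to 271 CPM) and sgCbfa2t2 (259 to 287 CPM), none of them called. In the direct contrast with the other 3 gene-targeting groups neither gene passed (0.18 ± 0.08 for Rpa2 and 0.11 ± 0.06 for Trim28, adjusted p = 0.229 and 0.411 in limma). The other Rad18 partners Ube2a, Ube2b and Pcna were not called in sgZbtb1 (adjusted p = 0.585, 0.632 and 0.166).

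Among 22 p53 target genes, of which 19 were tested, 2 rose in sgZbtb1 (10.5%, beside 4.79% of all genes) and none was called in sgCbfa2t3, sgCbfa2t2 or sgLmo2 with limma (backgrounds 0.537%, 0.147% and 0.0173%). The unadjusted counts were 4 in sgZbtb1 (21.1%, beside 17.6%), 0 in sgCbfa2t3 and sgCbfa2t2 (beside 10.6% and 9.56%), and 1 in sgLmo2 (5.26%, beside 5.65%). Bax, which opens the mitochondrial membrane in apoptosis, was at 58.1, 79.9 and 76.8 CPM in sgControl and 126, 147 and 115 CPM in sgZbtb1 (log2 fold change 0.85 ± 0.16, SE; adjusted p = 0.000129 in limma). Cdkn1a, the cell cycle inhibitor p21, was at 508, 486 and 478 CPM in sgControl and 697, 715 and 623 CPM in sgZbtb1 (0.46 ± 0.09; adjusted p = 0.000496 in limma). Both calls held in all 14 alternatives and against the other 3 gene-targeting groups (0.81 ± 0.13 and 0.45 ± 0.08; adjusted p = 4.64e-06 and 1.73e-05 in limma). In sgCbfa2t3 Cdkn1a was at 540, 553 and 561 CPM, also above every sgControl library, without a call (0.17 ± 0.09; adjusted p = 0.532 in limma). Bax overlapped sgControl there (67.0, 77.7 and 92.0 CPM). Ddb2, a repair gene that p53 induces in human cells, stood at 11.0, 9.26 and 9.38 CPM in sgControl and 5.03, 9.08 and 6.38 CPM in sgZbtb1 (log2 fold change -0.50, 95% interval -1.31 to 0.30). Xpc and Polh, repair genes that are also known p53 targets, had log2 fold changes of 0.11 (-0.12 to 0.35) and -0.19 (-0.69 to 0.31) in sgZbtb1. Beside these values, 22 proliferation genes summed to 6540 to 6730 CPM in sgControl and 7080 to 7140 CPM in sgZbtb1 with 0 calls among 22 tested in limma (6 at an unadjusted p below 0.05, 5 of them higher), the 12 LP markers to 1010 to 1110 and 905 to 981 CPM with 2 calls among 9 tested, both lower (Kit and Ptprc), and the 4 B-cell markers to 310 to 375 and 210 to 222 CPM with 2 calls among 2 tested, both lower (Ebf1 and Pax5). Of all genes in this comparison, 4.79% were called and 17.6% had an unadjusted p below 0.05. In sgCbfa2t3 the proliferation sum was 7090 to 7230 CPM, and Ptprc stood at 390 ± 23.6 CPM there and 391 ± 25.6 CPM in sgZbtb1, beside 476 ± 36.0 CPM in sgControl (adjusted p = 0.131 and 0.0393 in limma). The 6 T-cell markers summed to 26.1 to 29.5 CPM in sgControl and 12.0 to 20.7 CPM in sgZbtb1, with 0 calls in limma among the 1 gene tested, which was lower at an unadjusted p below 0.05. The part of these shifts in the repair and p53 target values was not tested, and in bulk libraries fewer cells of a type and less RNA per cell cannot be told apart.

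Zbtb1 peaks were assigned to 15 of the 37 repair genes (40.5%) by the nearest gene start, against 28.9% of all tested genes, and 13 of the 37 (35.1%) had a peak within 1 kb of the start, against 19.8%. Among the 8157 genes with a mean above 10 CPM, the shares were 33.3% and 23.6%, and 14 and 12 of the 34 repair genes above that level had such a peak. The 15 genes held 18 peaks, of which 72.2% lay within 1 kb of a start, while 45.1% of the 5898 peaks of the list did. Their median score was 27.1, close to the 28.0 of the whole list. No test was made of these shares.

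The score, a tag count that the peak caller scaled to depth, was well above the rest at 4 promoters. The Msh6 promoter peak, chr17:87974614-87974984 on GRCm38 and -251 bases from the start, had a score of 525.7 and was the 32nd of the list. The Rev1 promoter peak, chr1:38129849-38130219 and -368 bases from the start, had a score of 313.8 and was the 67th, and its gene name was blank in the list and filled in here from RefSeq. Xrcc6, chr15:82016284-82016654 at 100 bases after its start and beside the start of Desi1, had 132.2, and Xpc, chr6:91515597-91515967 at 106 bases after its start and near that of Lsm3, had 125.7. The other 14 peaks scored 16.5 to 29.7. They lay within 1 kb of the starts of Mdc1, Nbn, Wrn, Rev3l, Ung, Ogg1, Rad18, Brca2 and Parp1, in introns of Xrcc5, Wrn and Xpc, -20189 bases from the start of Msh6 and, for Ube2t, inside the neighbouring gene Lgr6. The peak at Rad18 (chr6:112696371-112696741, score 18.5) and that at Rev3l (chr10:39732277-39732647, score 26.1) were below the median of the list.

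**Figure D5:**
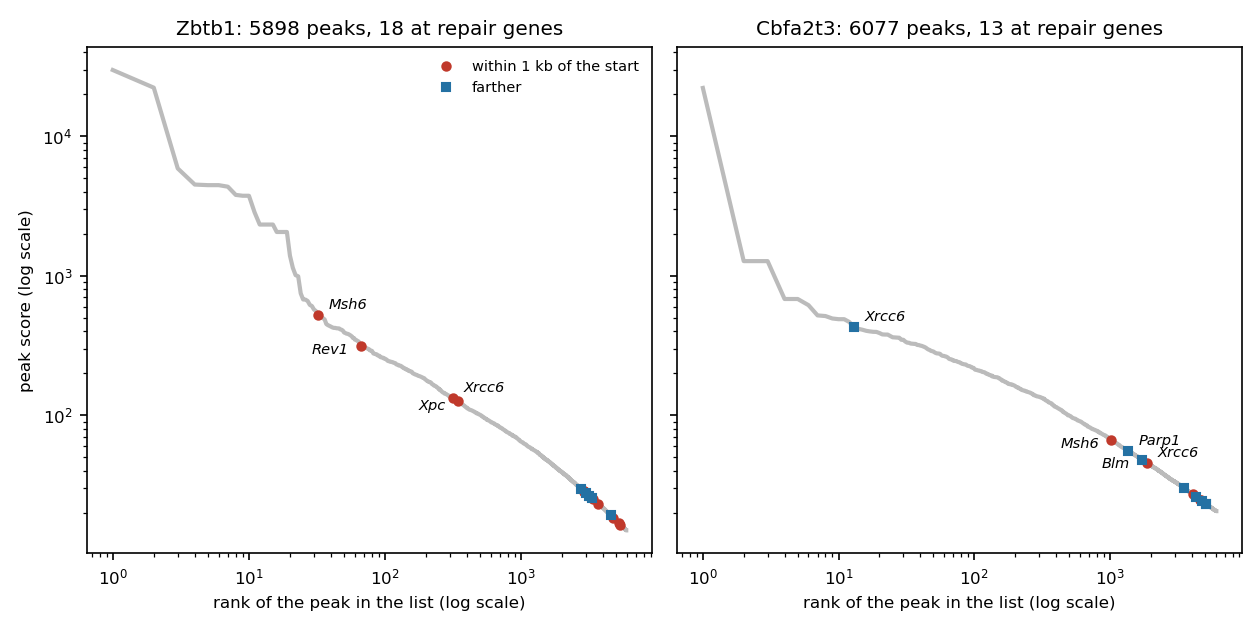
Score of each peak against its rank in the Zbtb1 (left) and Cbfa2t3 (right) lists, both on log scales, with the peaks of repair genes marked as circles within 1 kb of the start and squares farther away. Msh6 at 525.7 and Rev1 at 313.8 lead the Zbtb1 peaks and an Xrcc6 intron peak at 428.2 the Cbfa2t3 peaks, and most others lie in the lower part of both lists.

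Cbfa2t3 peaks were assigned to 9 of 37 repair genes (24.3%, against 21.9% of tested genes), with 13 peaks in all, and 5 of 37 (13.5%) had one within 1 kb of the start, against 7.02%. Among the 8157 genes with a mean above 10 CPM the shares were 24.2% and 8.1%, and 9 and 5 of the 34 repair genes above that level had such a peak. The highest was the Xrcc6 intron peak, chr15:82027771-82028149, 11591 bases after the start, with a score of 428.2 and 13th of 6077 peaks. The annotation also places it within Desi1 and within 1 kb of another Xrcc6 start. Next came the Msh6 promoter at 66.8, a site -22528 bases from the start of Parp1 at 55.5, a Blm intron at 48.0 and the Xrcc6 promoter at 45.5. The other 8 scored 23.2 to 30.2, at Xpc, Mdc1, Msh6, Ung, Atm, Xrcc6, Blm and Ercc1. In all, 6 genes (Msh6, Xrcc6, Xpc, Mdc1, Ung and Parp1) had a peak in both lists, and 19 of 37 had one in neither. At Msh6, Xrcc6, Mdc1 and the Xpc intron the peaks of the 2 factors overlapped, in 4 of 18 Zbtb1 peaks beside 25.2% of the whole list. At the Atm promoter a Cbfa2t3 peak (score 24.6) overlapped a Zbtb1 peak (18.5) that the list assigns to the divergent neighbour Npat.

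The sequences printed above differ in their motifs. The Xrcc6 intron holds 3 E-boxes and a Runx core, and the Rev1 promoter, 79.0% G and C, holds none of the 4 motifs. The Msh6 promoter, the strongest Zbtb1 site of the set, and the Xpc intron hold 1 E-box each. Over the 200-base windows of all Zbtb1 peaks, 41.3% held TGTGGT, 15.8% TGGTGGT, 6.62% CCGGAAG and 39.4% CAGNTG, and 5, 2, 0 and 6 of the 18 peaks at repair genes did. For Cbfa2t3 the shares were 43.7%, 6.94%, 4.74% and 83.2%, and 4, 1, 1 and 8 of 13 did. TGTGGT and TGGTGGT can share bases.

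Binding and expression were set side by side. The 15 genes with a Zbtb1 peak had a median log2 fold change of -0.13 in sgZbtb1 (6 higher and 9 lower) and the 22 without a peak -0.04 (9 higher and 13 lower). The 13 genes with a peak within 1 kb of the start had -0.04 (6 higher and 7 lower), as without a peak. Each set held 2 genes with an unadjusted p below 0.05, Rev3l and Xrcc6 with a peak and Fancd2 and Chek1 without, where 17.6% of all genes did. Msh6 and Rev1, with the strongest Zbtb1 peaks, had log2 fold changes of 0.05 (95% interval -0.17 to 0.27) and -0.26 (-0.78 to 0.26). The 9 genes with a Cbfa2t3 peak had a median of -0.02 in sgCbfa2t3 (4 higher and 5 lower) and the 28 without a peak -0.04 (12 higher and 16 lower). The 5 genes with a Cbfa2t3 peak within 1 kb of the start had -0.03 (1 higher and 4 lower). Xrcc6, with the strongest Cbfa2t3 peak, had -0.02 with an interval of -0.28 to 0.25.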

How the data were processed

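QuantSeq 3′ mRNA FWD libraries (single reads of 75 bases) were trimmed with fastp, aligned with STAR to mm10 and scaled by the authors to 1000000 reads per library, so the deposited values headed TPM are read counts on that scale (CPM). They are whole multiples of what 1 read is worth in 100% of values (tolerance 0.1 read), so whole reads could be recovered. 1 row without an identifier was left out, and the share of reads in it was at most 5.86e-05%. The authors' means, SDs and comparison columns (fold changes and p-values) were not used. ChIP-seq reads were aligned with Bowtie 1.1.1 and peaks called with HOMER, kept where reproducible in 2 replicates, and the deposited list gives a normalized score of at least 15 per peak and 1 list per factor, so replicates could not be compared.

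Values were tested as log2(CPM + 1) with limma 3.58.1 (R 4.3.3, trend, two-sided, all 15 libraries in 1 fit), for genes with a mean above 1 CPM, with Benjamini-Hochberg adjustment. Fold changes are on this scale and are understated for low genes. edgeR 4.0.16 and DESeq2 1.42.0 were run on the recovered reads. The script was tested on simulated counts, in which only genes with a mean above 10 CPM were changed, by more than any repair gene here. That test does not give the power for smaller changes or lower genes. Blank gene names in the peak lists (463 for Zbtb1 and 426 for Cbfa2t3) were filled with the nearest RefSeq GRCm38 transcript. Sequences are from the GRCm38 genome. Intervals and floors cover the spread between libraries or counting error only, and depth limits the low genes.

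The members and the lists were named by function, with earlier results of these data known. Genes given with all values are those called in any comparison, those with an unadjusted p below 0.05 in 2 comparisons against sgControl or in sgZbtb1 with libraries apart, Rad18, and genes with a peak in both lists. Of the other lists, at most 5 called genes per comparison are named. The alternatives are listed in the closing section.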

Additional observations from a re-analysis of the deposited data

Results flagged for a closer look

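In all, 4 genes of the related lists differed between sgZbtb1 and the other 3 gene-targeting groups by the direct limma contrast, in which 4.34% of all 11554 genes were called. They were 2 of 19 tested p53 targets (10.5%) and 2 of 2 tested B-cell markers, while 0 of 104 other pathway genes, 0 of 22 proliferation genes and 0 of 9 tested LP markers were called (6, 2 and 2 at an unadjusted p below 0.05, beside 15.9% of all genes). Bax differed by 0.81 ± 0.13 (log2, SE; adjusted p = 4.64e-06), with 115 to 147 CPM in sgZbtb1 and 55.3 to 92.0 CPM in the 9 other targeted libraries. Cdkn1a differed by 0.45 ± 0.08 (adjusted p = 1.73e-05), with 623 to 715 and 382 to 561 CPM. Ebf1 differed by -0.31 ± 0.08 (adjusted p = 0.0106), with 209 to 221 and 249 to 310 CPM, and Pax5 by -1.65 ± 0.42 (adjusted p = 0.00906), with 0 to 1.47 and 1.07 to 18.1 CPM, so that its libraries overlapped. No member of the repair set differed in this contrast.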

How the results depend on the processing

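The count of repair genes called stayed at 0 in all 5 comparisons with edgeR, DESeq2, median-of-ratios scaling, a fit on the compared groups alone, a pseudocount of 0.1, no filter on low values and a stricter one (mean above 10 CPM). Leaving out a library gave 0 to 1 calls in sgZbtb1 and 0 in the other comparisons, and the 1 call was Chek1 without sgControl replicate 2. With the replicate number as a block the count was 0 in all 5 comparisons. Same-numbered libraries deviated together only weakly (mean r 0.0279 over 30 pairs, -0.0072 to 0.0656), though more than those with different numbers (mean r -0.0139 over 60 pairs, -0.0608 to 0.032). The numbers were not taken as pairs in the reported fit. Over all genes the calls in sgZbtb1, sgCbfa2t3 and sgCbfa2t2 were 554, 62 and 17 in the reported fit, 330, 24 and 0 with no filter on low values, and 709, 93 and 36 with the block, while those in sgLmo2 went from 2 to 14 with the block. The 501 calls against the other 3 gene-targeting groups became 315 with no filter and 618 with the block. Without a library, the calls were 306 to 459 in sgZbtb1 (lowest without sgZbtb1 replicate 3), 26 to 59 in sgCbfa2t3 (sgControl replicate 2), 2 to 26 in sgCbfa2t2 (sgControl replicate 3 or sgCbfa2t2 replicate 2), 1 to 4 in sgLmo2, and 298 to 549 against the other 3 gene-targeting groups (sgZbtb1 replicate 2), and the background shares move with them. Peaks with a score of at least 30 were assigned to 4 members for Zbtb1 and 5 for Cbfa2t3. Within 10 kb of the start the counts were 13 and 6, and with names as deposited 14 and 9. The shares of all tested genes were not counted under these settings, so these counts cannot be set against a background. The 4 overlapping peaks remained 4 when 50% of each peak had to be shared.

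Of 504 log2 fold changes of the 9 genes given in full, over the 4 comparisons against sgControl, 456 kept their direction and 48 turned. Against the other 3 gene-targeting groups, which that count leaves out, Ung ran from -0.30 to 0.08 and Parp1 from -0.06 to 0.06. When libraries were left out, in sgZbtb1 the ranges were -0.01 to 0.11 (Parp1), -0.38 to 0.00 (Ung), -0.04 to 0.11 (Msh6), -0.03 to 0.20 (Xpc) and -0.15 to 0.04 (Rad18). In sgCbfa2t3 they were -0.30 to 0.10 (Mdc1), 0.00 to 0.20 (Fancd2), -0.07 to 0.06 (Xrcc6), -0.06 to 0.08 (Parp1), -0.17 to 0.02 (Ung), -0.05 to 0.13 (Msh6) and -0.23 to 0.00 (Xpc). In sgCbfa2t2 they were -0.21 to 0.03 (Mdc1), 0.00 to 0.19 (Parp1), -0.03 to 0.16 (Ung), -0.09 to 0.06 (Msh6) and -0.14 to 0.09 (Xpc). In sgLmo2 they were -0.13 to 0.09 (Mdc1), -0.12 to 0.06 (Xrcc6), -0.08 to 0.09 (Msh6), -0.18 to 0.05 (Xpc) and -0.14 to 0.06 (Rev3l). Median-of-ratios scaling, edgeR and DESeq2 gave 0.00, 0.00 and -0.01 for Msh6 in sgLmo2 and -0.01, -0.01 and -0.02 for Xpc in sgCbfa2t2, and edgeR gave 0.00 for Xrcc6 in sgCbfa2t3. The cause was not tested.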
